A study of Mus musculus with 6 samples.

Results

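The 32 genes described here belong to the unfolded protein response and the integrated stress response, and were read from a table of 55098 genes by their symbols. They matched 33 rows, since Ddit3 is listed on 2 rows, and the Ddit3 row with no count in any library was set aside. All 32 genes passed the filter on low counts, which left 17142 genes for testing. RNA of whole cerebella was sequenced from males taken at postnatal day 60. The 3 wild-type (WT) libraries are from animals 1, 3 and 5, labelled Slc39a14 wildtype, and the 3 knockout (KO) libraries are from animals 2, 4 and 6, labelled Slc39a14 knock-out, with 1 library per animal and no treatment named. Slc39a14 encodes ZIP14, a manganese, zinc and iron transporter, and the series presents the KO as a model of manganese-induced dystonia with parkinsonism. Neither the strain, nor the deleted part of the gene, nor the litters are named. Cells of different types were not separated, so that fewer cells of a type and less RNA per cell cannot be told apart.

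Proteins that are secreted or sit in membranes fold in the endoplasmic reticulum (ER) with the help of chaperones and of foldases, enzymes that make disulfide bonds. When unfolded proteins build up there, the membrane sensors IRE1, ATF6 and PERK signal to the nucleus. IRE1 splices the Xbp1 transcript and ATF6 is cut to release a transcription factor, and both routes raise genes for chaperones and for ER-associated degradation, the removal of misfolded proteins. PERK, like the other kinases of the integrated stress response, slows protein synthesis and favours translation of ATF4, which raises genes of amino acid supply and of stress-induced cell death. The members were therefore taken in 4 role groups: 14 ER chaperones and foldases, 6 genes of ER-associated degradation, 5 sensors and transcription factors, and 7 ATF4 targets. Counts per gene show neither the splicing of Xbp1 nor the translation of Atf4.

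What the groups share in sequence was read from RefSeq promoters on GRCm38.p6, the files' build, over the 250 bases before each start site. These held entries for 28 of the 32 members, and Manf, Hyou1, Atf6 and Derl1 had none. The ER stress response element (ERSE), the site through which ATF6 and XBP1 are known to act, was searched on both strands as CCAAT followed, after 9 bases of any kind, by CCACG. It was present in 37 of 32851 promoters (0.113%), and in 7 of 12 chaperone promoters, 2 of 5 of ER-associated degradation, 0 of 4 of sensors and factors and 0 of 7 of ATF4 targets. A match is a description of letters, and motif searches were chosen after the expression values were seen. The matches are printed because they were found in chaperones and degradation genes and in no ATF4 target. Capitals mark the match, which is the reverse complement where it opens with CGTGG, and each run is 5′ to 3′ on the gene's own strand. The run of Hspa5 is shorter because it lies in an annotated exon.
Hspa5, chr2:34772020-34772048, plus strand: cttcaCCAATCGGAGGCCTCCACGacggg
Hsp90b1, chr10:86705521-86705563, minus strand: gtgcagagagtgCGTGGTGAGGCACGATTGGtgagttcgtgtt
Hsp90b1, chr10:86705626-86705668, minus strand: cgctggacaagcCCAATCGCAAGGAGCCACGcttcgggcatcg
Canx, chr11:50325788-50325830, minus strand: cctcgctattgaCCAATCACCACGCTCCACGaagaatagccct
Calr, chr8:84847063-84847105, minus strand: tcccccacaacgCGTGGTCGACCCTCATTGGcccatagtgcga
Pdia6, chr12:17266479-17266521, plus strand: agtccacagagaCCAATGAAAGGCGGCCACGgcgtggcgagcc
Dnajc3, chr14:118937815-118937857, plus strand: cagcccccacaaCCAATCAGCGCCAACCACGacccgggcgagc
Creld2, chr15:88819508-88819550, plus strand: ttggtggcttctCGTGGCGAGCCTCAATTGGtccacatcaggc
Syvn1, chr19:6046520-6046562, plus strand: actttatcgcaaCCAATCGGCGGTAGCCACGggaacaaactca
Derl3, chr10:75893230-75893272, plus strand: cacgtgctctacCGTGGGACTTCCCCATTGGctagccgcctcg

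Some of the ATF4 targets carried another motif. The CARE, the site of ATF4 with its C/EBP partners, was searched as TGATGNAA on both strands and was present in 3.45% of all promoters. It was found in 3 of 7 ATF4 target promoters (Atf3, Asns and Chac1), in 0 of 12 chaperone promoters and in Herpud1 of the degradation group. Herpud1 also held the only match among the members to ERSE-II (ATTGG and CCACG with 1 base between them, 0.0304% of promoters), so its promoter has a motif of each arm. The UPRE core (TGACGTGG, 0.563% of promoters) was in 0 of 28 members. In these runs the capitals mark the match, and TTGCATCA is the reverse complement of the CARE. The run of Asns is also from an annotated exon.
Atf3, chr1:191183424-191183455, minus strand: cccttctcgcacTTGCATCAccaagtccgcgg
Asns, chr6:7693220-7693237, minus strand: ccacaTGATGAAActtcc
Chac1, chr2:119351037-119351068, plus strand: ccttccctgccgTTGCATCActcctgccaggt
Herpud1 (CARE), chr8:94386305-94386336, plus strand: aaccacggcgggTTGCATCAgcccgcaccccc
Herpud1 (ERSE-II), chr8:94386365-94386399, plus strand: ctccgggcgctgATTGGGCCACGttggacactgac

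The libraries held 13805997 to 15788135 counts in genes. The count of Slc39a14 itself was about equal in the libraries labelled KO (42.2 ± 3.18 CPM, counts scaled to a common library size after TMM normalization) and WT (42.3 ± 1.33 CPM, SD, n = 3 each), so it gave no check of the genotype. KO and WT stand for the labels throughout. Markers of the labelled tissue were present in every library, with the 10 granule cell markers summing to 6858 to 7128 CPM in WT and 6341 to 6478 CPM in KO, and the 10 Purkinje cell markers to 7234 to 8183 and 7660 to 8964 CPM. The 15 choroid plexus markers summed to 456 to 1405 CPM in WT and 1070 to 3351 CPM in KO. The results were also computed without WT 5, the lowest library in choroid plexus markers, together with KO 4, the highest. On the log2 scale the median fold change of the chaperones moved from -0.19 to -0.18 and that of the ATF4 targets from -0.14 to -0.15. Members at an edgeR unadjusted p under 0.05 went from 2 to 0. This fit did not remove the difference in choroid plexus markers. Their sums were 1405 and 602 CPM in WT 1 and 3, and 2284 and 1070 CPM in KO 2 and 6.

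Per gene length the members spanned a wide range of levels. In the authors' FPKM (counts scaled by gene length and library total) ER chaperones were at the top. Calr, a calcium-binding chaperone of glycoproteins, was at 129 ± 9.11 FPKM in WT, and Hspa5, the chaperone BiP that also keeps the sensors inactive, at 125 ± 12.7 FPKM (SD, n = 3 each). Hsp90b1, Canx and Pdia3 followed at 96.5, 82.9 and 78.1 FPKM. The first ATF4 target in this order was Asns at 23.7 FPKM. The lowest members were also ATF4 targets: Chac1, a glutathione-degrading enzyme, was at 1.61 FPKM, Atf3, a stress-induced transcription factor, at 0.454 FPKM, and Trib3, a pseudokinase that restrains AKT and ATF4, at 0.275 FPKM. Their counts per library were 20 to 54, 9 to 26 and 6 to 16, so that differences in these genes were not detectable unless large.

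**Figure D1:**
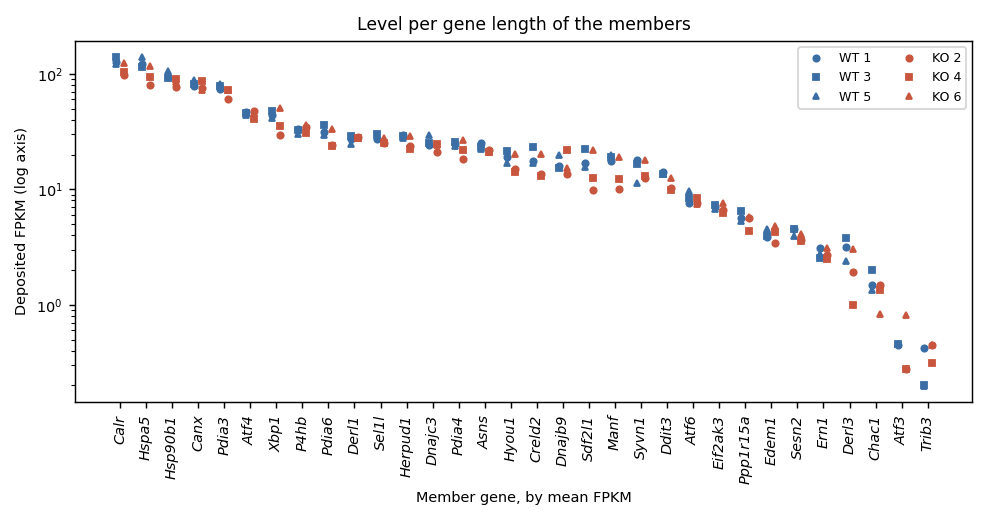
Deposited FPKM of the 32 members in each library on a log axis, ordered by the mean over 6 libraries, with WT in blue and KO in red. Calr and Hspa5 are at the top at over 80 FPKM in every library, and Atf3 and Trib3 at the bottom at under 0.9 FPKM.

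No member passed the test between KO and WT. Of all tested genes 0.0467% were called (8 genes, all higher in KO), by the edgeR quasi-likelihood test at a Benjamini-Hochberg adjusted p under 0.05. The members called were 0 of 32 by edgeR, by DESeq2 and by limma-voom, and every member had an edgeR adjusted p of 1.0. At an unadjusted p under 0.05 there were 2 of 32 members, against 2.75% of all tested genes. Both (Hspa5 and Ddit3) were lower in KO, against 1.06% of all tested genes, and 0 were higher, against 1.69%. Which members passed this limit varied: Hspa5 did so in 10 of 15 alternatives, Ddit3 in 8 and Manf in 4. The authors' deposited table lists p = 0.0161 for Hspa5, 0.0284 for Manf and 0.0520 for Ddit3, each with an adjusted p of 1.0. The log2 fold change was below 0 in 24 of 32 members with a median of -0.15, and in 51.2% of all tested genes with a median of -0.004. Every KO library lay below every WT library in 4 members (Hsp90b1, Pdia3, Ddit3 and Asns) and above in 0, against 3.69% and 3.58% of all tested genes.

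**Figure D2:**
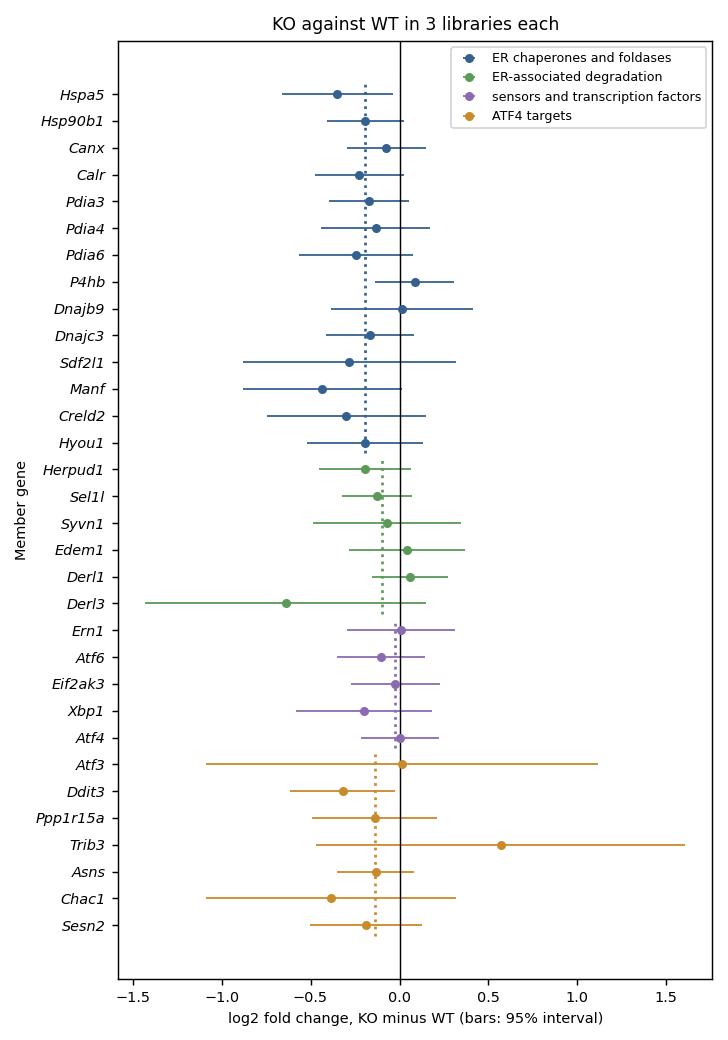
Log2 fold change of KO minus WT for each member (points) with its 95% interval (bars) from the edgeR fit on 3 libraries per group, coloured by role. Dotted lines mark the group medians, at -0.19 for chaperones and foldases and -0.14 for ATF4 targets, and the intervals of Hspa5 and Ddit3 end below 0 before adjustment.

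The chaperones and foldases were the group with the lowest median. Of 14 genes 12 had a log2 fold change below 0, with a median of -0.19 and a range of -0.43 (Manf) to 0.09 (P4hb). Hspa5 (ENSMUSG00000026864, GRCm38.p6 chromosome 2, 34771970 to 34777547, plus strand) had 538, 507 and 610 CPM in WT 1, 3 and 5, while KO 2, 4 and 6 had 358, 417 and 524 CPM. KO 2 and KO 4 lay under all WT libraries and KO 6 lay among them. On the log2 scale this was a fold change of -0.35, with an SE of 0.14 and a 95% interval of -0.66 to -0.04 (edgeR unadjusted p = 0.0319, adjusted p = 1.0). The authors' deposited table also lists -0.35 for Hspa5. The value was below 0 in all 15 alternative analyses, from -0.51 without KO 6 to -0.23 without KO 2.

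Manf (ENSMUSG00000032575, GRCm38.p6 chromosome 9, 106838312 to 106891979, minus strand), a secreted ER protein that protects neurons, showed the same order of the KO libraries. WT 1, 3 and 5 had 65.3, 70.0 and 71.9 CPM of Manf, while KO 2, 4 and 6 had 37.5, 45.3 and 70.8 CPM, with KO 6 inside the WT range. Its log2 fold change was -0.43 (SE 0.20), -0.74 without KO 6 and -0.25 without KO 2. The edgeR adjusted p was 1.0, and over the alternatives 0.167 (without the low-count filter) to 1.0. The annotated span of Manf overlaps Rbm15b and Dcaf1, genes with similar numbers of counts, and how reads in the shared stretches were assigned is unknown. Calr had 380, 416 and 360 CPM in WT against 299, 313 and 377 CPM in KO 2, 4 and 6, again with KO 6 inside the WT range (fold change on the log2 scale -0.23, SE 0.11, edgeR adjusted p = 1.0). Canx, the membrane-bound partner of calreticulin, had 386, 400 and 429 CPM in WT against 373, 428 and 355 CPM in KO, groups that overlapped (fold change on the log2 scale -0.07, 95% interval -0.30 to 0.15).

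In 2 chaperones the groups did not overlap, by small margins. Hsp90b1, the ER member of the HSP90 family, had 394, 385 and 437 CPM in WT against 324, 378 and 362 CPM in KO (fold change on the log2 scale -0.19, SE 0.10, edgeR adjusted p = 1.0). Pdia3, a disulfide isomerase of glycoproteins, had 241, 258 and 267 CPM in WT against 201, 240 and 239 CPM in KO (fold change on the log2 scale -0.17, SE 0.10, edgeR adjusted p = 1.0). Pdia6 and Pdia4, other disulfide isomerases, were at -0.24 and -0.13 on the log2 scale, and Dnajc3 and Hyou1, partners of BiP, at -0.17 and -0.19. The small inducible proteins Creld2 and Sdf2l1 were at -0.30 and -0.28, with SE of 0.20 and 0.27. Sdf2l1 ranged from 17.8 to 25.6 CPM in WT and from 11.6 to 25.6 CPM in KO, the highest library being KO 6. The members above 0 were the disulfide isomerase P4hb (0.09, 95% interval -0.14 to 0.31) and the BiP cochaperone Dnajb9 (0.01, -0.39 to 0.41), and the sign of Dnajb9 turned without KO 4 (-0.21).

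The chaperones with an ERSE in the promoter window were all on the lower side. Their log2 fold changes were below 0 in 7 of 7, with a median of -0.23, and in 3 of 5 of the chaperones searched without an ERSE, with a median of -0.13. Outside the members 26 genes had an ERSE, of which 9 were tested and 3 were below 0, with a median of 0.06. Of all searched genes without an ERSE 50.5% of those tested were below 0. Of all 14 chaperones 12 were below 0, so most of any subset would be. Manf (-0.43) and Hyou1 (-0.19) had no promoter entry and are in neither set. Sdf2l1, at -0.28, was searched and had no ERSE. The motif was chosen after the expression values were seen, and these shares are descriptions that were not compared by a test.

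**Figure D3:**
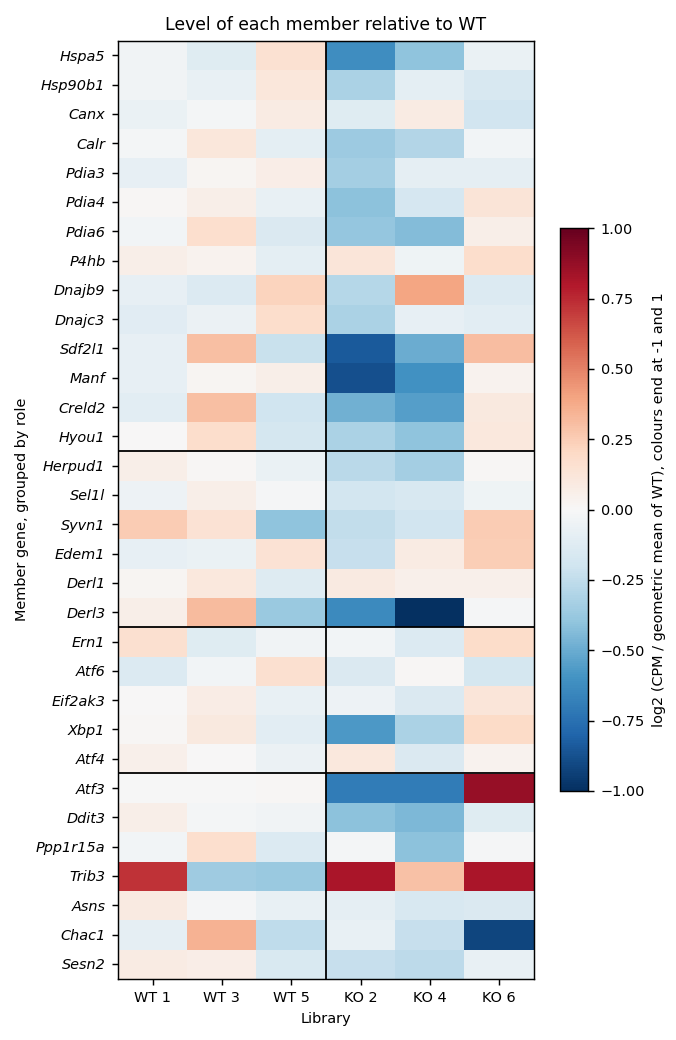
Level of each member (rows, grouped by role) in each library (columns), as log2 of CPM over the geometric mean of the WT libraries, with blue below and red above WT and colours ending at -1 and 1. KO 2 and KO 4 are blue in most chaperones, KO 6 lies within or above the WT range in 10 of 14, and the ATF4 targets Atf3, Trib3 and Chac1 vary between single libraries.

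The KO libraries differed among themselves. KO 2 was below every WT library in 13 of 14 chaperones, KO 4 in 10 and KO 6 in 4, against 20.8%, 27.1% and 24.7% of all tested genes. A chaperone score was formed as the mean of the members' log2 CPM, each centred over the 6 libraries. It was 0.056, 0.16 and 0.092 in WT 1, 3 and 5, and -0.29, -0.12 and 0.11 in KO 2, 4 and 6, so that KO 6 lay above WT 1 and WT 5. The sum of their CPM, which weights the abundant genes, was 2649 to 2815 in WT and 2135 to 2613 in KO. Here the groups did not overlap. The sums of the ATF4 targets did not overlap either, at 122 to 136 CPM in WT and 108 to 120 CPM in KO. Those of ER-associated degradation (498 to 554 and 473 to 543 CPM) and of sensors and factors (402 to 420 and 360 to 432 CPM) overlapped. KO 6 had the highest chaperone score of the KO libraries, so leaving it out lowers the KO values by construction. The values without it are therefore only a description. Without KO 6 the median log2 fold change of the chaperones was -0.31. In that fit 12 of 32 members, 8 of them chaperones, were lower at an edgeR unadjusted p under 0.05, against 1.53% of all genes tested. None of the 32 was called there either by edgeR, with 3 genes called in all (0.0169%). Without KO 2 the median was -0.11 and 0 members were at an unadjusted p under 0.05.

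**Figure D4:**
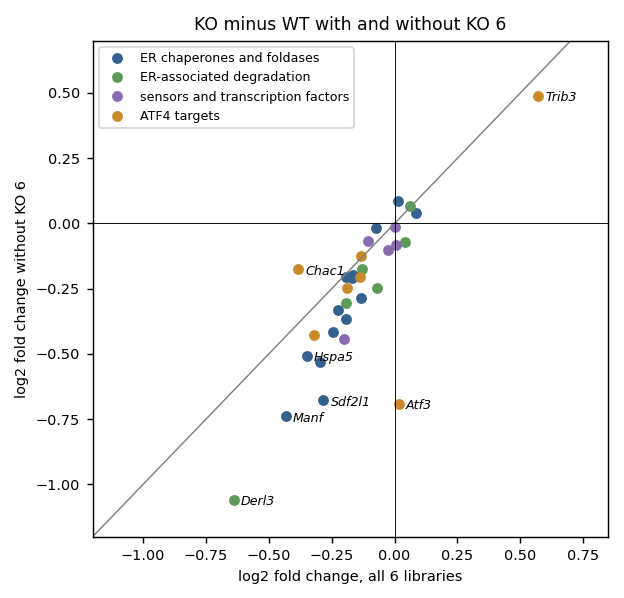
Log2 fold change of KO minus WT for each member with all 6 libraries (horizontal axis) and without KO 6 (vertical axis), coloured by role, with the line of equal values. Most chaperones lie under the line, with Hspa5 at -0.35 and -0.51 and Manf at -0.43 and -0.74, and Atf3 moves from 0.02 to -0.69. KO 6 had the highest chaperone score of the KO libraries, so lower chaperone values without it follow from that choice.

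Genes of ER-associated degradation showed smaller values, 4 of 6 below 0 with a median of -0.10. Derl3, an inducible channel component, was the lowest of all members at -0.64 (SE 0.35, edgeR adjusted p = 1.0). It had 6.59, 7.89 and 4.90 CPM in WT 1, 3 and 5 against 4.08, 2.09 and 6.30 CPM in KO 2, 4 and 6, with KO 6 above WT 5. It was at -1.06 without KO 6 and at -0.32 without KO 4. Herpud1, an adaptor of the degradation complex, had 72.6, 70.2 and 66.6 CPM in WT against 58.0, 55.0 and 70.2 CPM in KO, with KO 6 again inside the WT range (fold change on the log2 scale -0.19, SE 0.12). Sel1l, the scaffold of the HRD1 ligase, had 246, 266 and 254 CPM in WT against 225, 228 and 248 CPM in KO (fold change on the log2 scale -0.13, SE 0.09). The ligase itself, Syvn1, was at -0.07, with 56.5 to 88.9 CPM in WT and 62.8 to 89.0 CPM in KO. It overlaps Mrpl49 on the opposite strand by 83 bases. Derl1, a constitutive relative of Derl3, had 94.9, 101 and 85.8 CPM in WT against 99.5, 97.0 and 96.9 CPM in KO (fold change on the log2 scale 0.06, 95% interval -0.15 to 0.27), and Edem1, which marks glycoproteins for removal, was at 0.04. None passed, and the edgeR adjusted p was 1.0 in each.

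Values of the sensors were near 0. Ern1, which encodes IRE1, was at 0.01 on the log2 scale (95% interval -0.30 to 0.31). Eif2ak3, which encodes PERK, had 44.1, 46.4 and 41.7 CPM in WT against 42.4, 39.8 and 47.9 CPM in KO (fold change on the log2 scale -0.02, 95% interval -0.28 to 0.23). Atf6 had 74.2, 80.5 and 91.6 CPM in WT against 74.1, 82.3 and 72.6 CPM in KO (fold change on the log2 scale -0.11, 95% interval -0.35 to 0.14). The groups overlapped in each sensor. Xbp1, itself a target of ATF6, had 150, 160 and 139 CPM in WT against 100, 120 and 171 CPM in KO 2, 4 and 6. KO 6 was the highest library and KO 2 the lowest (fold change on the log2 scale -0.20, SE 0.17, edgeR adjusted p = 1.0; -0.44 without KO 6 and -0.04 without KO 2). Atf4 had 115, 112 and 107 CPM in WT against 120, 101 and 114 CPM in KO, the members' value closest to 0 (fold change on the log2 scale 0.003, 95% interval -0.22 to 0.22).

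Among the ATF4 targets 5 of 7 were below 0, with a median of -0.14. Ddit3 (ENSMUSG00000025408, GRCm38.p6 chromosome 10, 127290774 to 127296288, plus strand), the transcription factor CHOP that promotes cell death under lasting stress, was at 25.5, 24.1 and 23.9 CPM in WT 1, 3 and 5. It was at 18.5, 17.9 and 22.6 CPM in KO 2, 4 and 6, so that the groups did not overlap. Its fold change on the log2 scale was -0.32, with an SE of 0.13 and a 95% interval of -0.62 to -0.02 (edgeR unadjusted p = 0.0374, adjusted p = 1.0), and it was below 0 in all 15 alternatives (-0.43 to -0.25). Ddit3 overlaps Mars on the opposite strand by 68 bases, and Mars has 5957 counts in the 6 libraries against 1923 for Ddit3. Without a stated strand setting, reads of this stretch may be counted for either gene.

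Asns, asparagine synthetase, had 71.8, 66.7 and 63.8 CPM in WT against 63.3, 60.3 and 60.9 CPM in KO. The groups did not overlap, though WT 5 and KO 2 were close (fold change on the log2 scale -0.13, SE 0.10, edgeR adjusted p = 1.0). Sesn2, a leucine sensor that restrains mTORC1, had 16.5, 16.4 and 14.1 CPM in WT against 13.3, 13.0 and 14.8 CPM in KO, where KO 6 lay above WT 5 (fold change on the log2 scale -0.19, SE 0.14). Ppp1r15a, the phosphatase subunit GADD34 that restores translation, was at -0.14 (SE 0.16). The low-count targets had wide intervals: Chac1 was at -0.38 (95% interval -1.09 to 0.32), Trib3 at 0.57 (-0.47 to 1.61) and Atf3 at 0.02 (-1.09 to 1.12). Atf3 had 14, 16 and 14 counts in WT and 10, 9 and 26 counts in KO 2, 4 and 6, and its log2 fold change was -0.69 without KO 6.

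The contrast between the arms was small beside the spread of the libraries. The chaperone median lay 0.05 below the ATF4 target median on the log2 scale. The ATF4 target score was 0.16, 0.089 and -0.079 in WT 1, 3 and 5 and -0.048, -0.21 and 0.093 in KO 2, 4 and 6. The chaperone score minus the ATF4 target score was -0.10, 0.069 and 0.17 in WT, and -0.24, 0.086 and 0.018 in KO 2, 4 and 6. The means were 0.05 ± 0.14 in WT and -0.05 ± 0.17 in KO (SD, n = 3 each), and the groups overlapped. KO 2 was the library with the lowest chaperones relative to ATF4 targets. In KO 4 and KO 6, as in WT 3 and WT 5, the ATF4 target score was below the chaperone score. The ATF4 target score weights its 7 genes equally, and among them Chac1, Atf3 and Trib3 had only 6 to 54 counts per library. The difference of the medians turned its sign without KO 2 (0.05).

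The wider pathway was given by 96 further genes. Of 50 other ER folding and export genes all were tested, 33 had a log2 fold change below 0 with a median of -0.02, and none was called by edgeR with the low-count filter. At an unadjusted p under 0.05 there was 1 of 50, against 2.75% of all tested genes. This was Dnajb11, another cochaperone of BiP. It had 73.4, 86.4 and 88.6 CPM in WT 1, 3 and 5 against 58.0, 59.6 and 77.3 CPM in KO 2, 4 and 6, where KO 6 lay above WT 1 (fold change on the log2 scale -0.35, SE 0.13, edgeR adjusted p = 1.0). Pdia5 and Sec61b were at -0.75 (SE 0.41) and -0.31 (SE 0.18), and the abundant translocon gene Sec62 at -0.02 (95% interval -0.33 to 0.28). The score of this list was between -0.047 and 0.043 in all 6 libraries, a narrower range than that of the chaperones.

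Of 46 other genes of the integrated stress response 44 were tested, 23 were below 0 with a median of -0.004, and none was called by edgeR with the low-count filter. Eif2ak2, the kinase PKR that senses double-stranded RNA and is raised by interferon, had 6.95, 8.79 and 9.51 CPM in WT against 16.3, 15.3 and 16.7 CPM in KO. Every KO library was above every WT library (fold change on the log2 scale 0.93, SE 0.16, edgeR adjusted p = 0.154), and it was called by DESeq2 (adjusted p = 0.0029) and by edgeR without the low-count filter (adjusted p = 0.000784). Those 2 settings called 42 and 142 genes in all, against 8 in the main fit. Over the other alternatives the adjusted p of Eif2ak2 was 0.0566 to 0.674. Slc7a1, an arginine transporter, had 52.1, 53.5 and 46.0 CPM in WT against 39.0, 42.8 and 44.4 CPM in KO (fold change on the log2 scale -0.27, SE 0.11, edgeR adjusted p = 1.0). Stc2, a stanniocalcin, had 19, 25 and 24 counts in WT and 16, 10 and 13 counts in KO (fold change on the log2 scale -0.83, SE 0.35, edgeR adjusted p = 1.0). In Slc7a1 and Stc2 the groups did not overlap. Every KO library lay below every WT library in 2 of the 44 genes and above in 2, against 3.69% and 3.58% of all tested genes. The abundant lipoprotein receptor gene Vldlr was at -0.07 (95% interval -0.30 to 0.16).

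Other lists varied over the same libraries. The 14 cytosolic heat shock genes, of which 13 were below 0 (median -0.13) and 0 were called by edgeR with the low-count filter, had scores of 0.11, 0.049 and 0.082 in WT 1, 3 and 5 and -0.24, -0.096 and 0.094 in KO 2, 4 and 6, with the KO libraries in the order seen in the chaperones. Hsp90ab1 and Hsph1 were at -0.18 (SE 0.09) and -0.21 (SE 0.11). The immediate early genes were low in KO 2 alone (score -0.50, against -0.12 to 0.23 in the other libraries), with Fos at 15.4 CPM in KO 2 and 39.7 to 48.4 CPM elsewhere, Npas4 at 5.46 and 11.6 to 14.1 CPM, and Dusp1 at 31.1 and 55.6 to 86.8 CPM. Choroid plexus markers were at an edgeR unadjusted p under 0.05 in 14 of 15, and none was called by edgeR with the low-count filter. All 14 were higher in KO, against 1.69% of all tested genes. In 0 of the 15 did every KO library lie above every WT library. Their scores were 0.25, -0.90 and -1.44 in WT 1, 3 and 5 and 0.79, 1.51 and -0.21 in KO 2, 4 and 6. The marker Ttr had 666, 229 and 123 CPM in WT against 1233, 1651 and 553 CPM in KO. Ttr was called by edgeR without the low-count filter (adjusted p = 2.13e-48), a setting that called 142 genes in all, against 8 with the filter. With the filter its edgeR unadjusted p was 0.0106 and it was not called, and the groups overlapped, with WT 1 above KO 6. Its adjusted p was 0.249 to 1.0 over the other alternatives. KO 4 and KO 2 were highest in choroid plexus markers and lowest in the chaperone score. WT 1 came next in choroid plexus markers and had the lowest chaperone score of the WT libraries. The order was not reversed throughout: KO 4 was highest in choroid plexus markers, but KO 2 was lowest in the chaperone score (-0.29 against -0.12). WT 5 was lowest in choroid plexus markers, yet its chaperone score (0.092) was below that of KO 6 (0.11) and WT 3 (0.16). Granule cell markers were below 0 in 10 of 10, against 51.2% of all tested genes. Microglia and meningeal fibroblast markers were so in 0 of 12 and 0 of 10. Purkinje cell, Bergmann glia and astrocyte, and endothelial markers were below 0 in 2 of 10 each, and oligodendrocyte markers in 7 of 10. Of those tested, 1 of 5 forebrain neuron and 3 of 6 blood cell markers were below 0. The forebrain neuron score was 0.56 in KO 4 and -0.31 to 0.023 elsewhere. The summed CPM of all 10 forebrain markers was 490 in KO 4 and 456 to 648 elsewhere. At an edgeR unadjusted p under 0.05 there were 0 granule cell markers, 0 meningeal fibroblast markers and 6 microglia markers. Every KO library lay below every WT library in 2 granule cell markers, and above in 6 microglia markers, against 3.69% and 3.58% of all tested genes. The interferon genes were higher in all KO libraries, KO 6 included (score 0.93, 1.00 and 1.33 in KO 2, 4 and 6 and between -1.21 and -0.84 in WT), with Oasl2 and Ifi27 at 2.96 and 1.60 (edgeR adjusted p = 0.0124 and 0.0126). The part of cell composition, of the heat shock and early genes and of single libraries in the members' values was not tested.

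**Figure D5:**
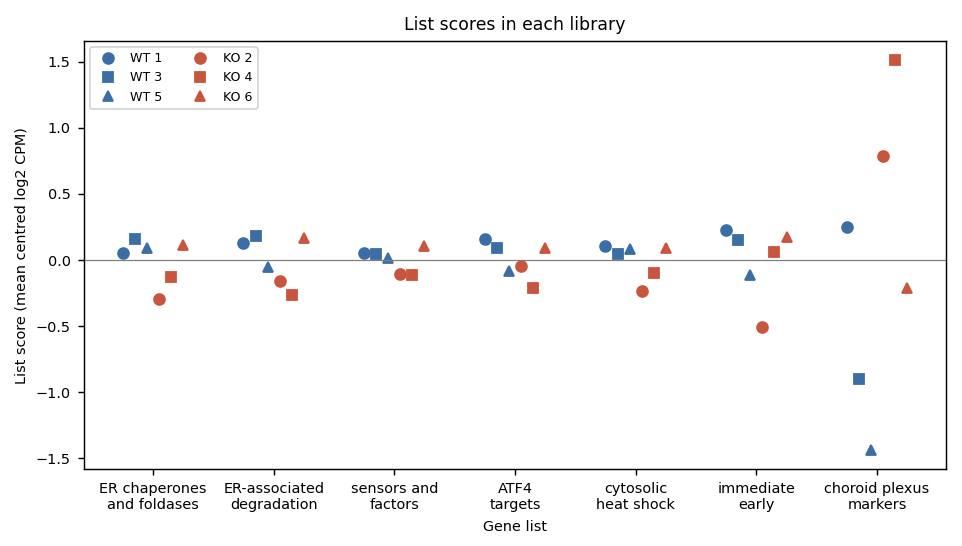
Scores of the 4 role groups and of 3 other lists in each library, as the mean of centred log2 CPM, with WT in blue and KO in red and a symbol per library. In the chaperones KO 2 and KO 4 lie under all WT libraries and KO 6 at 0.11 among them, and the choroid plexus markers are highest in KO 4 and KO 2.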

How the data were processed

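Total RNA was extracted with TRIZOL and an outside company made the libraries, per the labels' protocols. HISAT2, DESeq2 and the build GRCm38.p6 appear in the submitters' processing notes, which state no counting program or strand setting. The deposited counts are whole numbers per gene, and the deposited FPKM are scaled by gene length and library total. The authors' own comparison is deposited as a log2 fold change, a p-value and an adjusted p-value per gene. Here edgeR 4.0.16 (R 4.3.3) ran the quasi-likelihood F test on the counts with TMM factors of 0.990 to 1.01, filterByExpr and Benjamini-Hochberg adjustment over 17142 genes, with calls at an adjusted p under 0.05. Each SE is the size of the log2 fold change divided by the square root of F. One count was worth 0.0628 to 0.0732 CPM. The p-values set the difference between groups against the spread between libraries, moderated over the tested genes. With 1 library per animal, spread between animals cannot be told apart from spread between dissections or library preparations. Scores used a prior count of 2. Alternatives were other scalings and filters, DESeq2 1.42.0, limma-voom (limma 3.58.1), robust shrinkage, each library left out, WT 5 and KO 4 left out together, and other make-ups of the groups for the contrast. Scripts were tested on simulated counts of 17142 genes, where edgeR called 24% of the 1.5-fold changes and 70% of the 2-fold changes. There 13 of 157 calls were false. Most members had fold changes smaller than 1.5-fold, so the lack of calls does not show that they were unchanged.

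Groups came from sample titles. Values in every library are given for the 3 members with the smallest unadjusted p and the 2 with the highest CPM in each role group. From each wider pathway list the 3 smallest p and the highest CPM were taken, and from the heat shock, early and interferon lists the 2 smallest p. Library values of Hsp90b1, Pdia3, Atf3, Sdf2l1 and Fos were added after they were seen. Members and lists were chosen with earlier results of these data known.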

Additional observations from a re-analysis of the deposited data

How the results depend on the processing

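The groups were compared without pairing, because the labels name no pairs and no litters. Whether any of WT animals 1, 3 and 5 were matched with KO animals 2, 4 and 6 is unknown. No member was called under any of the 15 alternatives in which it was tested; Trib3 was tested in 14, since it did not reach 1 CPM in 3 libraries. The number of all genes called was 8, and 142 without the low-count filter, 42 with DESeq2, 40 without WT 5 and KO 4, and 0 to 28 with single libraries left out (0 without WT 1 or WT 3, 28 without WT 5, 2 without KO 2, 17 without KO 4, 3 without KO 6). Members at an unadjusted p under 0.05 numbered 2, and 4 without the filter, 0 without WT 5 and KO 4, and 0 to 12 with single libraries left out (0 without WT 1 or KO 2, 1 without WT 3 or KO 4, 12 without KO 6). With single libraries left out the chaperone median ranged from -0.31 to -0.11, the ATF4 target median from -0.20 to -0.11 and their difference from -0.10 to 0.055. Other make-ups of the groups left it between -0.057 and -0.029. Signs turned in values near 0. With limma-voom Dnajb9 was at -0.0093, Atf4 at -0.00017 and Atf3 at -0.19. Without WT 5 and KO 4 Dnajb9 was at -0.10 and Slc39a14 at 0.063. Slc39a14 was at 0.0026 with upper quartile scaling, 0.014 with library totals and 0.0025 without the filter. With single libraries left out the ranges were -0.21 to 0.15 for Dnajb9, -0.25 to 0.058 for Syvn1, -0.071 to 0.16 for Edem1, -0.084 to 0.091 for Ern1, -0.10 to 0.037 for Eif2ak3, -0.051 to 0.075 for Atf4, -0.69 to 0.28 for Atf3, -0.15 to 0.10 for Sec62, -0.065 to 0.041 for Slc39a14 and -0.62 to 0.057 for Fos. The cause was not tested. Counts of 6 to 54 per library limit Trib3, Atf3 and Chac1.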
